A study of Rattus norvegicus with 9 samples.

Results

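The 10 genes described here make, or carry the receptors for, prostaglandins. They are Ptgs1, Ptgs2, Ptges, Ptgis, and Ptgds on the side of synthesis and Ptger1, Ptger2, Ptger3, Ptger4, and Ptgfr on the side of the receptors. They were taken by their symbols from a deposited table of 35362 genes, in which all 10 were listed. The samples are adipose-derived mesenchymal stem cells (ASCs) of 6 male Sprague Dawley rats, 6 weeks old, which were cultured to passage 3 and given no treatment. SASCs came from the inguinal subcutaneous depot, PASCs from perirenal fat, and EASCs from epididymal fat, with 3 sequenced samples in each group. The methods give 6 culture wells for each group and do not say whether the 3 sequenced samples came from separate rats, so that the p-values may measure only the spread between wells. The comparisons asked how ASCs of the visceral depots differ from those of subcutaneous fat, and from each other.

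Prostaglandins are short-lived signaling lipids made from arachidonic acid, which phospholipases A2 release from membranes. The cyclooxygenases COX-1 (Ptgs1), present in most cells, and COX-2 (Ptgs2), which is quickly induced by growth factors and cytokines, turn it into prostaglandin H2. Terminal synthases then decide the product, which is prostaglandin E2 with Ptges, prostacyclin with Ptgis, and prostaglandin D2 with Ptgds. Prostaglandin E2 acts on the receptors EP1 to EP4 (Ptger1 to Ptger4) and prostaglandin F2alpha on FP (Ptgfr). In adipose tissue these lipids are known to act on lipolysis and on the differentiation of preadipocytes, which prostacyclin promotes and prostaglandin F2alpha inhibits.

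The upstream sequences of the cyclooxygenases, of Ptges, and of Ptgfr are shown because these genes differed from each other in the direction of their changes between depots. Each line gives the 250 bases before the gene's start in the RefSeq annotation of GRCr8, 5′ to 3′ on the gene's own strand, and capitals mark matches to the motifs searched. Of the 10 genes 9 had such a sequence, and Ptgis, with the largest changes of the 10 against SASCs, was not among them.
Ptgs1: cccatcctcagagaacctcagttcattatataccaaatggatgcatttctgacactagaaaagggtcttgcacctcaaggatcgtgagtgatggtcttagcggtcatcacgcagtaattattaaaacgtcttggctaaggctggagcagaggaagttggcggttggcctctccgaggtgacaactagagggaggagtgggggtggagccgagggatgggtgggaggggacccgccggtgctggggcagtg
Ptgs2: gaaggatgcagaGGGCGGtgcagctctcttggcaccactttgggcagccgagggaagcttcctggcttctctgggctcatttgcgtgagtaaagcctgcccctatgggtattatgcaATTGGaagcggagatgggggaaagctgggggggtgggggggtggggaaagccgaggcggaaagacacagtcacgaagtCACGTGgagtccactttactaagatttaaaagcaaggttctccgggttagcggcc
Ptges: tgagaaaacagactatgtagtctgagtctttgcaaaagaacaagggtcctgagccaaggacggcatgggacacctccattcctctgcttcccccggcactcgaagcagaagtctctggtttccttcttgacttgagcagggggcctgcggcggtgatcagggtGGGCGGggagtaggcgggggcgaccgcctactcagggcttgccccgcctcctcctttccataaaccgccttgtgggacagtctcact
Ptgfr: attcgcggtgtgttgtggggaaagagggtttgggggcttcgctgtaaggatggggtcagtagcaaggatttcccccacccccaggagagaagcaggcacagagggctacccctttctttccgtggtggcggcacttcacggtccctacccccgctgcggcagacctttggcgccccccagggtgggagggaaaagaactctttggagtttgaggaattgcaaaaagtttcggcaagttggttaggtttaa
Ptgs1 lies at chr3:39981169-39981418 on the plus strand of GRCr8, Ptgs2 at chr13:64713813-64714062 on the plus strand, Ptges at chr3:34586988-34587237 on the minus strand, and Ptgfr at chr2:243425624-243425873 on the minus strand, each range being that of the bases shown. The motifs searched on both strands were the TATA box (TATAAA), the CCAAT box (CCAAT), a half-site of the cAMP response element (TGACG), the AP-1 site (TGANTCA), the GC box (GGGCGG), the E-box (CACGTG), the kappaB site, and the CArG box. The sequence of Ptgs2 held an E-box 55 to 50 bases before the start, a CCAAT box on the other strand at 133 to 129, and a GC box at 238 to 233, and that of Ptges held a GC box at 87 to 82. Those of Ptgs1 and Ptgfr held none of these letters in this window. Of 27457 promoters of the same length, 5.79% held the E-box, 34.3% the CCAAT box, and 32.4% the GC box.

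Total counts were 17591916 to 30299032 per sample. Levels are given as CPM, the counts scaled to the size of the library by the TMM method, as mean ± SD over the 3 samples of a group. At these depths 3 counts correspond to 0.104 to 0.159 CPM, a limit that covers counting error only. Ribosomal RNA took 10.4% to 15.5% of the counts of the SASCs samples, 22.4% to 32.9% of those of the PASCs samples, and 15.9% to 40.3% of those of the EASCs samples. Each of the 8 mesenchymal markers examined was above 1 CPM in each group, and their summed level was 20800 to 26100 CPM over the 9 samples. Its largest part, Col1a1, had means of 10700 CPM in SASCs, 19100 in PASCs, and 20300 in EASCs, while Dcn fell from a mean of 6880 CPM in SASCs to 218 in PASCs and 301 in EASCs, and Pdgfra from 1540 CPM to 278 and 235. Genes used as markers of other cells were also present, and which cells carried their RNA was not tested. Their summed levels over the samples of SASCs, PASCs, and EASCs, in that order, were 75.1 to 83.3, 129 to 134, and 209 to 219 CPM for 8 leukocyte genes, and 160 to 172, 2830 to 3130, and 6320 to 6690 CPM for 6 smooth muscle genes. Tagln and Acta2 made up most of the smooth muscle sums, and of the 6 genes Rgs5 fell, with means of 1.25, 0.0759, and 0.169 CPM. The other sums were 20.0 to 21.4, 98.3 to 106, and 132 to 143 CPM for 8 mesothelial genes, 52.3 to 54.4, 13.7 to 16.7, and 36.6 to 39.7 CPM for 6 endothelial genes, and 87.1 to 95.9, 19.1 to 20.2, and 9.24 to 10.1 CPM for 5 adipocyte genes. Single genes went against the sum of their list, as Tek of the endothelial list, which was higher in PASCs (8.30 CPM) and EASCs (8.08) than in SASCs (2.55). Of 8 epithelial genes none had a group mean of 1 CPM, Pax8 rose from 0.0840 CPM to 0.709 in PASCs and 0.916 in EASCs, and Lcn5, Crisp1, and Adam7 were at 0 counts in every sample.

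Ptgs1, the gene of COX-1, was highest in PASCs and lowest in EASCs. The 3 samples gave 99.9, 94.0, and 95.2 CPM in SASCs, 170, 170, and 173 CPM in PASCs, and 58.8, 54.4, and 64.2 CPM in EASCs. No 2 groups overlapped, and the samples of a group lay close together. Compared with SASCs, Ptgs1 rose in PASCs with a log2 fold change of 0.83 (95% confidence interval 0.71 to 0.95, adjusted p = 8.65e-13) and fell in EASCs with one of -0.71 (-0.83 to -0.58, adjusted p = 4.94e-11), by edgeR's quasi-likelihood test with Benjamini-Hochberg adjustment over the 14770 genes tested, as for every adjusted p where no other test or fit is named. Neither passed the FC of 2 that the study set for DEGs. The direct comparison of EASCs with PASCs did, with a 2.89-fold lower level in EASCs (log2 fold change -1.53, adjusted p = 2.23e-17). In samples of mixed RNA like these, fewer cells that use a gene and less of its RNA per cell cannot be told apart.

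Ptgs2, the gene of COX-2, was low in all groups and was upregulated in EASCs. Its counts in the 9 samples were 19 to 106, which gave 1.60, 1.23, and 0.927 CPM in SASCs, 1.57, 1.01, and 1.91 CPM in PASCs, and 3.10, 4.30, and 2.51 CPM in EASCs. SASCs and PASCs overlapped, while each EASCs sample was above all 6 of them. The level in EASCs was 2.59-fold that in SASCs (log2 fold change 1.37, interval 0.79 to 1.96, adjusted p = 0.00013) and 2.25-fold that in PASCs (1.17, interval 0.59 to 1.75, adjusted p = 0.00201). Between PASCs and SASCs the log2 fold change was 0.21, with an interval of -0.43 to 0.85 (adjusted p = 0.568). The FC over PASCs fell under 2 without EASCs replicate 2 (log2 fold change 0.93, adjusted p = 0.0315) or without PASCs replicate 2 (0.94, adjusted p = 0.023). The table's gene model of Ptgs2, at chr13:67351230-67356920 of rn6, spans 5691 bases and the RefSeq gene of GRCr8 8258, so reads from outside the shorter model may not have been counted.

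**Figure D1:**
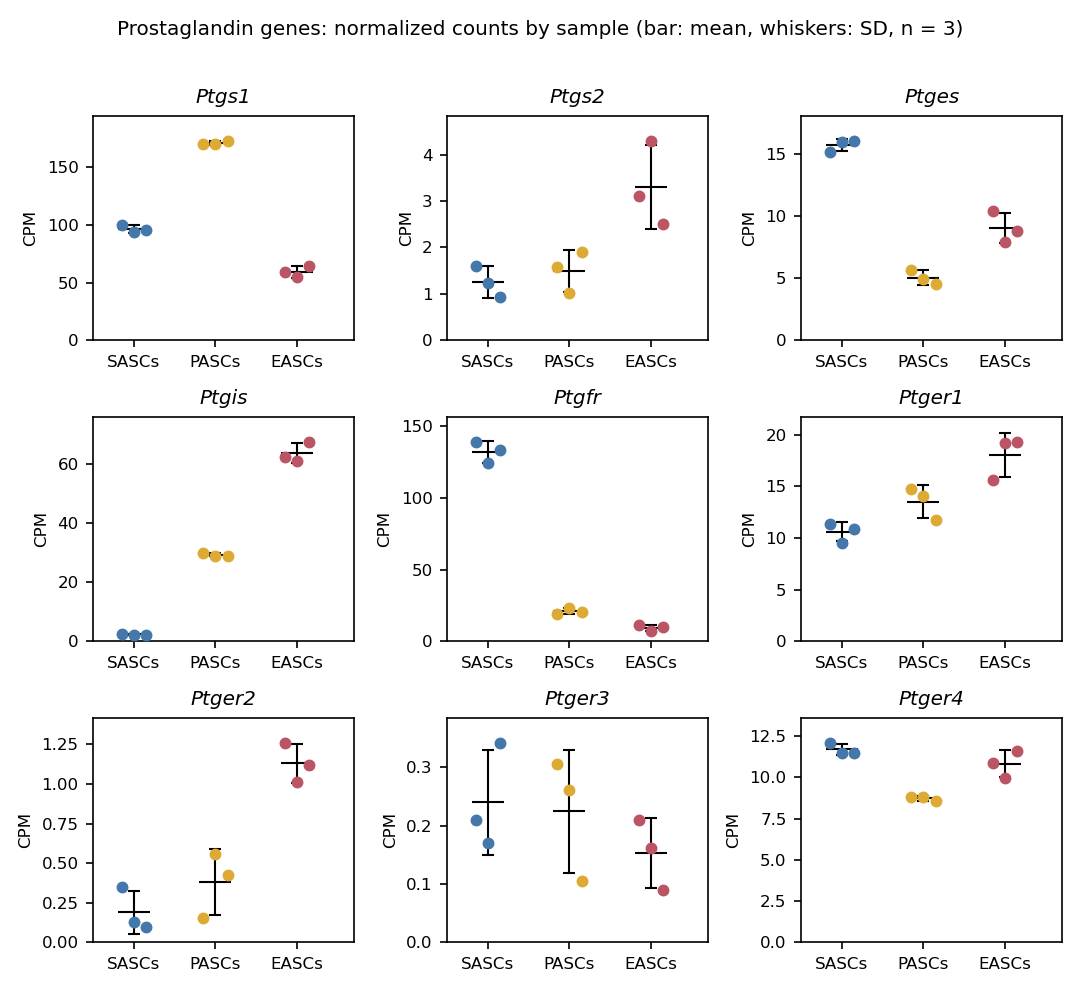
Normalized counts (CPM, linear axis from 0) of 9 of the 10 prostaglandin genes in the 3 samples of SASCs, PASCs, and EASCs, with the mean as a horizontal bar and the SD as whiskers. Ptgis sits at 2.12 to 2.57 CPM in SASCs and 61.2 to 67.7 CPM in EASCs, and Ptgfr at 124 to 139 CPM in SASCs and 7.17 to 11.2 CPM in EASCs. Ptgds, with 0 counts, is not drawn.

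Among the terminal synthases, the gene of prostacyclin synthase was upregulated in both visceral groups and that of the microsomal prostaglandin E synthase fell in both. Ptgis spans chr3:163950746-163986129 on the minus strand in the deposited table, whose positions are those of rn6. It was at 2.57, 2.12, and 2.25 CPM in SASCs, 30.0, 29.0, and 29.1 CPM in PASCs, and 62.6, 61.2, and 67.7 CPM in EASCs. The 3 groups were far apart compared with the spread within them. The level was 12.6-fold higher in PASCs (log2 fold change 3.65, interval 3.44 to 3.86, adjusted p = 1.25e-21) and 27.3-fold higher in EASCs (4.77, interval 4.57 to 4.98, adjusted p = 1.1e-24) than in SASCs. EASCs were 2.17-fold above PASCs (1.12, interval 0.97 to 1.27, adjusted p = 6.91e-13). The summed levels of the smooth muscle, mesothelial, and leukocyte markers given above were also in ascending order from SASCs to PASCs to EASCs, and their part in the difference of Ptgis was not tested.

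Ptges was at 15.2, 16.0, and 16.1 CPM in SASCs, 5.66, 4.97, and 4.50 CPM in PASCs, and 10.4, 7.94, and 8.81 CPM in EASCs. SASCs were the highest and PASCs the lowest, without overlap. The level was 3.09-fold lower in PASCs than in SASCs (log2 fold change -1.63, interval -1.89 to -1.37, adjusted p = 6.55e-12). In EASCs it fell less, by 0.79 on the log2 scale (adjusted p = 1.27e-06), and EASCs were above PASCs by 0.83 (adjusted p = 1.32e-05), both under an FC of 2. The summed endothelial markers had the same order of the groups as Ptges, and their part in its difference was not tested. By the table's positions the gene lies within the span of Fibcd1 on the other strand, which had 0 to 6 counts per sample. Ptgds, the gene of the lipocalin-type prostaglandin D synthase, had 0 counts in all 9 samples, which allows a level of up to 0.104 to 0.159 CPM, and it was not tested.

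Shares within a family were computed from levels per kilobase of the table's gene length. Of the terminal synthases Ptges, Ptgis, and Ptgds together, Ptgis made up 10.4% ± 1.23 in SASCs, 82.1% ± 1.46 in PASCs, and 84.7% ± 1.90 in EASCs. Ptges made up the rest, so the larger transcript of the pair was Ptges in SASCs and Ptgis in the other groups. These shares leave out Ptges2 and Ptges3, the other prostaglandin E synthases, which were looked up after the values of the 10 genes were seen. Ptges2 was at 10.0 CPM in SASCs, 12.6 in PASCs, and 11.6 in EASCs, and Ptges3 at 136, 204, and 185 CPM, both without division by length. Ptgs2 made up 1.97% ± 0.470 of the cyclooxygenases in SASCs, 1.34% ± 0.394 in PASCs, and 8.08% ± 2.65 in EASCs, and Ptgs1 was the larger in every sample. In a two-sided exact permutation test the shares of Ptgis in each visceral group against SASCs, and those of Ptgs2 in EASCs against each other group, gave p = 0.1, the smallest that 3 samples against 3 allow, or 0.164 after adjustment over 18 such tests. The shares of Ptgis in EASCs and PASCs overlapped (p = 0.2, exact permutation test), as did those of Ptgs2 in PASCs and SASCs (p = 0.2).

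**Figure D2:**
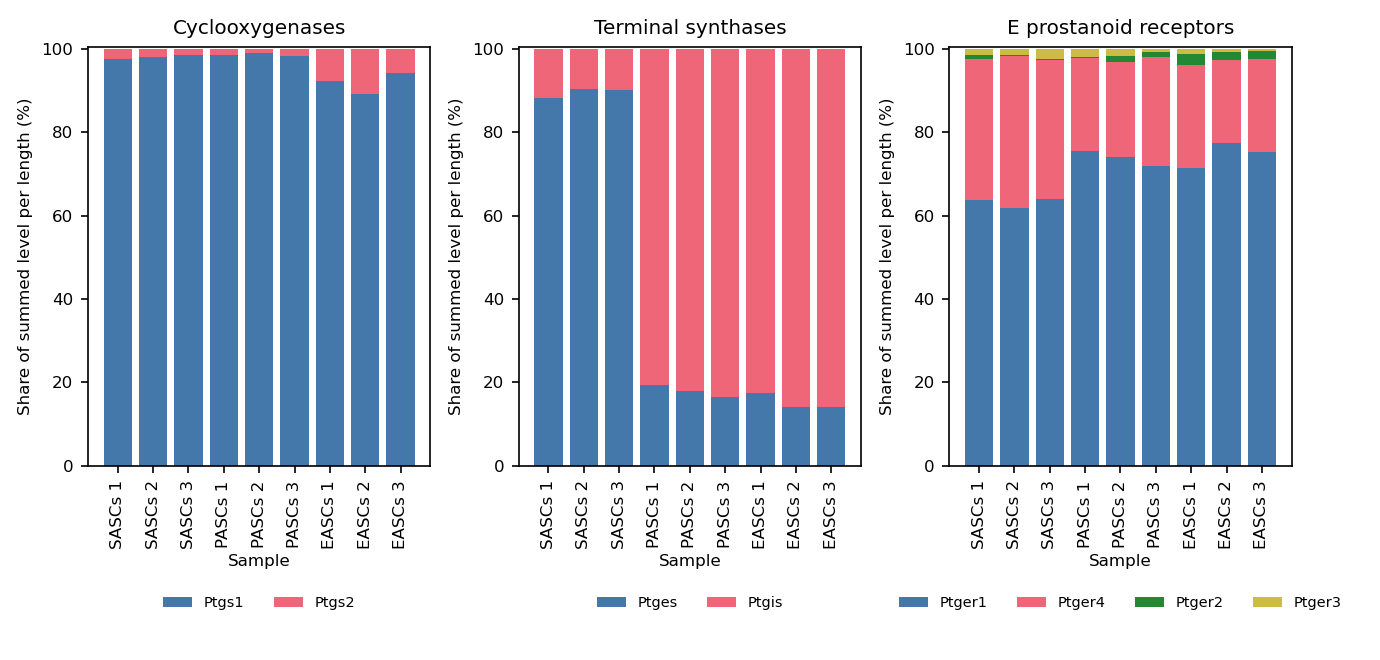
Shares (%) of each gene in the summed level per length of the cyclooxygenases, the terminal synthases, and the E prostanoid receptors in each of the 9 samples, as stacked bars. Ptgis takes 9.48% to 11.8% of the terminal synthases in the SASCs samples and 80.6% to 85.8% in the other 6, while Ptger1 and Ptger4 take nearly all of the E prostanoid receptors throughout.

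Of the 4 receptors for prostaglandin E2, Ptger1 and Ptger4 carried nearly all counts. Ptger1, whose receptor EP1 raises calcium, was at 11.3, 9.55, and 10.9 CPM in SASCs, 14.7, 14.1, and 11.7 CPM in PASCs, and 15.6, 19.2, and 19.3 CPM in EASCs. The groups followed each other without overlap, with a small gap between SASCs and the lowest PASCs sample. It rose in EASCs by 0.77 (adjusted p = 1.04e-06) and in PASCs by 0.36 (adjusted p = 0.00748) on the log2 scale over SASCs, and EASCs were above PASCs by 0.41 (adjusted p = 0.00531), none with an FC above 2. These 3 changes depended on the scaling. With total counts in place of TMM, which moved the median of all genes to -0.39 in EASCs and -0.33 in PASCs against SASCs, they were 0.38 (adjusted p = 0.0599), 0.03 (adjusted p = 0.906), and 0.35 (adjusted p = 0.215).

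Ptger4, whose receptor EP4 raises cAMP, was at 12.1, 11.5, and 11.5 CPM in SASCs, 8.84, 8.79, and 8.58 CPM in PASCs, and 10.9, 9.97, and 11.6 CPM in EASCs. PASCs were below all other samples, and SASCs and EASCs overlapped. The gene fell in PASCs by 0.42 on the log2 scale (interval -0.65 to -0.20, adjusted p = 0.00139). In EASCs the log2 fold change against SASCs was -0.11 (interval -0.33 to 0.11, adjusted p = 0.355), which became -0.52 (adjusted p = 0.0111) without TMM. EASCs were above PASCs by 0.31 (adjusted p = 0.0355), and this call was lost without PASCs replicate 1, 2, or 3 or EASCs replicate 1 or 3, and also with DESeq2 (adjusted p = 0.057), without TMM (0.528), or without the filter on low counts (0.0667).

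Ptger2, whose receptor EP2 also raises cAMP, was near the limit of detection outside EASCs. The SASCs samples had 10, 3, and 2 counts, the PASCs samples 4, 15, and 8, and the EASCs samples 30, 25, and 25, or 0.191 ± 0.137, 0.379 ± 0.207, and 1.13 ± 0.122 CPM. Every EASCs sample was above the other 6. The level in EASCs was 5.46-fold that in SASCs (log2 fold change 2.45, interval 1.36 to 3.54, adjusted p = 0.000209) and 2.97-fold that in PASCs (1.57, interval 0.57 to 2.56, adjusted p = 0.0141). Without SASCs replicate 1, the highest of its group, the log2 fold change over SASCs was 3.26 (adjusted p = 0.000212). The call against PASCs was lost without PASCs replicate 1 (1.17, adjusted p = 0.106) and without EASCs replicate 1 (1.48, adjusted p = 0.0566). Between PASCs and SASCs the log2 fold change was 0.88, with an interval of -0.38 to 2.14 (adjusted p = 0.203), and it ranged from 0.426 without PASCs replicate 2 (adjusted p = 0.627) to 1.69 without SASCs replicate 1 (adjusted p = 0.0614). Ptger3, whose receptor EP3 lowers cAMP and is known as the antilipolytic receptor of adipocytes, had 2 to 8 counts per sample and was not tested. Its model in the table spans 84580 bases and the RefSeq gene of GRCr8 144982, so here too reads may have been missed.

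Within the E prostanoid family, and per length, Ptger1 took 63.2% ± 1.25 of the summed level in SASCs, 73.9% ± 1.81 in PASCs, and 74.7% ± 3.03 in EASCs. Ptger4 took 34.5% ± 1.74, 23.7% ± 2.07, and 22.2% ± 2.41. Both shares separated SASCs from the other groups without overlap (p = 0.1, exact permutation test, adjusted p = 0.164) and overlapped between PASCs and EASCs (p = 0.8 for Ptger1 and p = 0.4 for Ptger4, exact permutation test). Counted without regard to length, Ptger4 was the larger of the pair in SASCs with 51.6% against 46.5% for Ptger1, so the order of the receptors there rests on the gene lengths. Ptger2 took 0.541% ± 0.358 in SASCs, 1.02% ± 0.561 in PASCs, and 2.28% ± 0.429 in EASCs, and the value in SASCs was 0.337% without SASCs replicate 1.

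Ptgfr, the gene of the FP receptor that signals through Gq, was downregulated in both visceral groups. It was at 139, 124, and 133 CPM in SASCs, 18.8, 23.0, and 20.7 CPM in PASCs, and 11.2, 7.17, and 10.2 CPM in EASCs. The order was thus the reverse of that of Ptgis, again with no overlap between groups. The level was 6.35-fold lower in PASCs (log2 fold change -2.67, interval -2.86 to -2.48, adjusted p = 1.06e-19) and 13.9-fold lower in EASCs (-3.80, interval -4.01 to -3.59, adjusted p = 2.94e-22) than in SASCs. EASCs were 2.19-fold below PASCs (-1.13, adjusted p = 3.5e-09), and without EASCs replicate 2 the value was -0.96 (adjusted p = 1.04e-08), under an FC of 2. In the table Ptgfr, at chr2:257005813-257038615 on the minus strand of rn6, lies wholly within the span of Lphn2 on the same strand. That span is 4598195 bases long and covers many other genes. Lphn2 was at 59.8 ± 1.26 CPM in SASCs, 28.3 ± 1.90 in PASCs, and 53.1 ± 1.44 in EASCs. Its log2 fold changes were -0.17 in EASCs and -1.08 in PASCs against SASCs and 0.91 between EASCs and PASCs, the last opposite in sign to that of Ptgfr. The summed level of the adipocyte markers had the same order as Ptgfr, and their part in its difference was not tested.

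**Figure D3:**
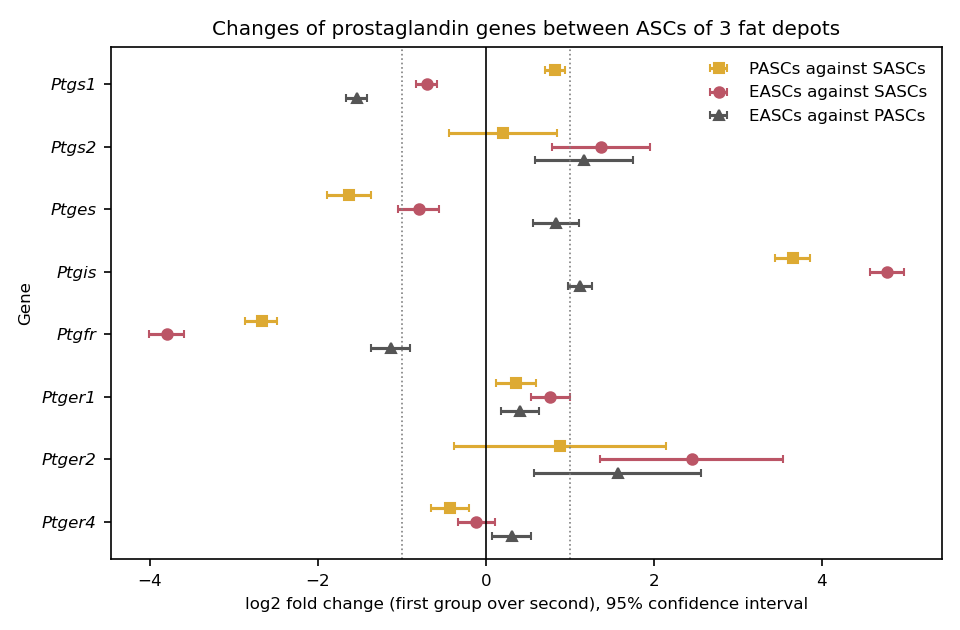
Log2 fold changes of the 8 tested genes in the 3 comparisons, with 95% confidence intervals of edgeR's fit as horizontal lines and dotted lines at an FC of 2 in each direction. In the comparisons with SASCs, Ptgis and Ptgfr lie farthest from 0, on opposite sides. The intervals of Ptgs2 and Ptger2 in PASCs against SASCs and of Ptger4 in EASCs against SASCs cross 0.

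Of the 10 genes, 8 had enough counts to be tested. In EASCs against SASCs 3 were upregulated DEGs (Ptgs2, Ptgis, and Ptger2) and 1 was a downregulated DEG (Ptgfr), or 4 of the 8, beside 13.6% of all genes tested that were upregulated, 14.2% that were downregulated, and 27.8% in either direction. In PASCs against SASCs 1 was upregulated (Ptgis) and 2 were downregulated (Ptges and Ptgfr), or 3 of the 8, beside 12.0%, 14.9%, and 26.9% of all genes. In EASCs against PASCs 3 were upregulated (Ptgs2, Ptgis, and Ptger2) and 2 were downregulated (Ptgs1 and Ptgfr), or 5 of the 8, beside 5.19%, 2.20%, and 7.39% of all genes. At an adjusted p under 0.05 and any FC, 7, 6, and 8 of the 8 passed in these comparisons, beside 69.7%, 69.2%, and 30.7% of all genes. The median log2 fold change of the 8 genes was 0.33, 0.28, and 0.62, and that of all genes tested 0.01, -0.01, and -0.01. The comparisons share samples, and their counts are not independent. Besides Ptgis, the group means of Ptgs2, Ptger1, and Ptger2 were in the ascending order of the leukocyte, smooth muscle, and mesothelial sums, and those of Ptger4 in the order of the endothelial sum, whose part was not tested. On the log2(CPM + 1) scale of limma, which shrinks the changes of low genes, Ptgs2 and Ptger2 passed the test but no longer an FC of 2, and without TMM Ptgs1 and Ptges became downregulated DEGs in EASCs against SASCs.

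Per length, the order of the 10 genes changed from depot to depot. In SASCs Ptgfr was first with 40.5 ± 2.27 CPM per kilobase, followed by Ptgs1 (34.1 ± 1.09) and Ptges (12.5 ± 0.395). In PASCs Ptgs1 was first (60.5 ± 0.490), followed by Ptgis (18.4 ± 0.331) and Ptgfr (6.37 ± 0.645). In EASCs Ptgis was first (40.1 ± 2.17) and Ptgs1 second (20.9 ± 1.74), and Ptges (7.23 ± 1.00) and Ptger1 (7.0 ± 0.814) came next with overlapping samples. Ptgfr, Ptger4, and Ptgs2 also overlapped with their neighbors in EASCs, at 2.91 ± 0.643, 2.07 ± 0.155, and 1.82 ± 0.503, as did Ptger3 and Ptger2 at the low end in PASCs. All other neighbors above Ptgds had samples that did not overlap.

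The genes that supply the pathway and make its other products were read from a list of 12, of which 7 were tested. Compared with SASCs, 5 of the 7 rose and 1 fell in EASCs, 6 rose and 1 fell in PASCs, and 2 rose in EASCs over PASCs, beside 69.7%, 69.2%, and 30.7% of all genes that passed the test in either direction. Pla2g4a, the cytosolic phospholipase A2 that releases arachidonic acid, was at 4.10 ± 0.381, 6.87 ± 0.690, and 9.75 ± 1.35 CPM in SASCs, PASCs, and EASCs, with log2 fold changes against SASCs of 0.76 in PASCs (adjusted p = 7.56e-05) and 1.26 in EASCs (adjusted p = 2.05e-08). Pla2g6, the calcium-independent phospholipase A2, fell from 20.9 ± 2.74 CPM to 9.48 ± 1.60 in PASCs and 10.9 ± 1.07 in EASCs. Akr1b1, an aldo-keto reductase that can form prostaglandin F2alpha, rose from 52.9 ± 4.78 CPM to 114 ± 4.05 in PASCs and 106 ± 2.54 in EASCs, a log2 fold change of 1.10 (2.14-fold) and 0.996 (1.99-fold), so that it was a DEG in PASCs alone. The FC in EASCs passed 2 without SASCs replicate 1 or 2 or EASCs replicate 2 or 3 and after removal of the rRNA genes, and that in PASCs fell under 2 without TMM (log2 fold change 0.776). Tbxas1, thromboxane synthase, rose from 0.600 ± 0.0811 CPM to 1.66 ± 0.582 and 3.33 ± 0.539, with log2 fold changes of 1.44 in PASCs (adjusted p = 0.000374) and 2.48 in EASCs (adjusted p = 5.99e-08). It overlaps Hipk2 and Parp12 on the other strand, which had 1046 to 2873 and 339 to 584 counts per sample against 14 to 97 for Tbxas1, and without stated strand counting their reads cannot be told apart from its own. The summed leukocyte, smooth muscle, and mesothelial markers had the same order of the groups as Tbxas1 and Pla2g4a, and their part was not tested.

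The receptors for the other prostanoids were 4 genes. Tbxa2r, the thromboxane receptor, was at 2.36, 1.91, and 3.08 CPM in SASCs, 11.8, 11.5, and 12.3 CPM in PASCs, and 24.5, 23.8, and 28.9 CPM in EASCs. It was upregulated 4.88-fold in PASCs (adjusted p = 7.18e-14) and 10.6-fold in EASCs (adjusted p = 2.82e-18), and 2.17-fold in EASCs over PASCs (adjusted p = 5.02e-09). It shares 2125 bases with Cactin on the same strand, whose log2 fold changes were 0.51 and 0.46 against SASCs and -0.05 (adjusted p = 0.693) between EASCs and PASCs. Tbxa2r had the order of the same marker sums as Tbxas1, whose part in it was not tested. Ptgir, the prostacyclin receptor, was at 37.9 ± 1.87 CPM in SASCs, 36.3 ± 3.0 in PASCs, and 55.8 ± 2.52 in EASCs. It rose by 0.56 on the log2 scale in EASCs over SASCs (adjusted p = 8.23e-08) and by 0.62 over PASCs (adjusted p = 6.13e-08), and PASCs and SASCs differed by -0.07 (interval -0.21 to 0.08, adjusted p = 0.429). Ptgdr and Ptgdr2, the receptors for prostaglandin D2, had 0 to 8 counts per sample and were not tested.

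Transport and breakdown were represented by 6 genes, of which 5 were tested. Hpgd, the 15-hydroxyprostaglandin dehydrogenase that starts the breakdown of prostaglandins E2 and F2alpha, was at 29.8, 30.3, and 33.3 CPM in SASCs, 2.49, 3.81, and 3.76 CPM in PASCs, and 0.335, 0.365, and 0.268 CPM in EASCs. It was 9.34-fold lower in PASCs (log2 fold change -3.22, adjusted p = 4.25e-18) and 94.5-fold lower in EASCs (-6.56, adjusted p = 2.06e-21) than in SASCs, and the EASCs values rest on 6 to 9 counts. The summed adipocyte markers had the same order of the groups, and their part was not tested. Ptgr1, a prostaglandin reductase of the later steps, rose from 40.2 ± 3.92 CPM to 89.7 ± 2.40 in PASCs and 61.9 ± 3.47 in EASCs, a log2 fold change of 1.16 (adjusted p = 1.55e-14) and 0.62 (adjusted p = 7.33e-09). Abcc4, an exporter of prostaglandins, fell by 0.47 in PASCs and by 0.61 in EASCs on the log2 scale. Slco2a1, an importer, was at 3.08 ± 0.862, 4.36 ± 0.111, and 3.53 ± 0.146 CPM, and its rise in PASCs (0.52, adjusted p = 0.0212) was the one change of the 3 comparisons that passed.

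**Figure D4:**
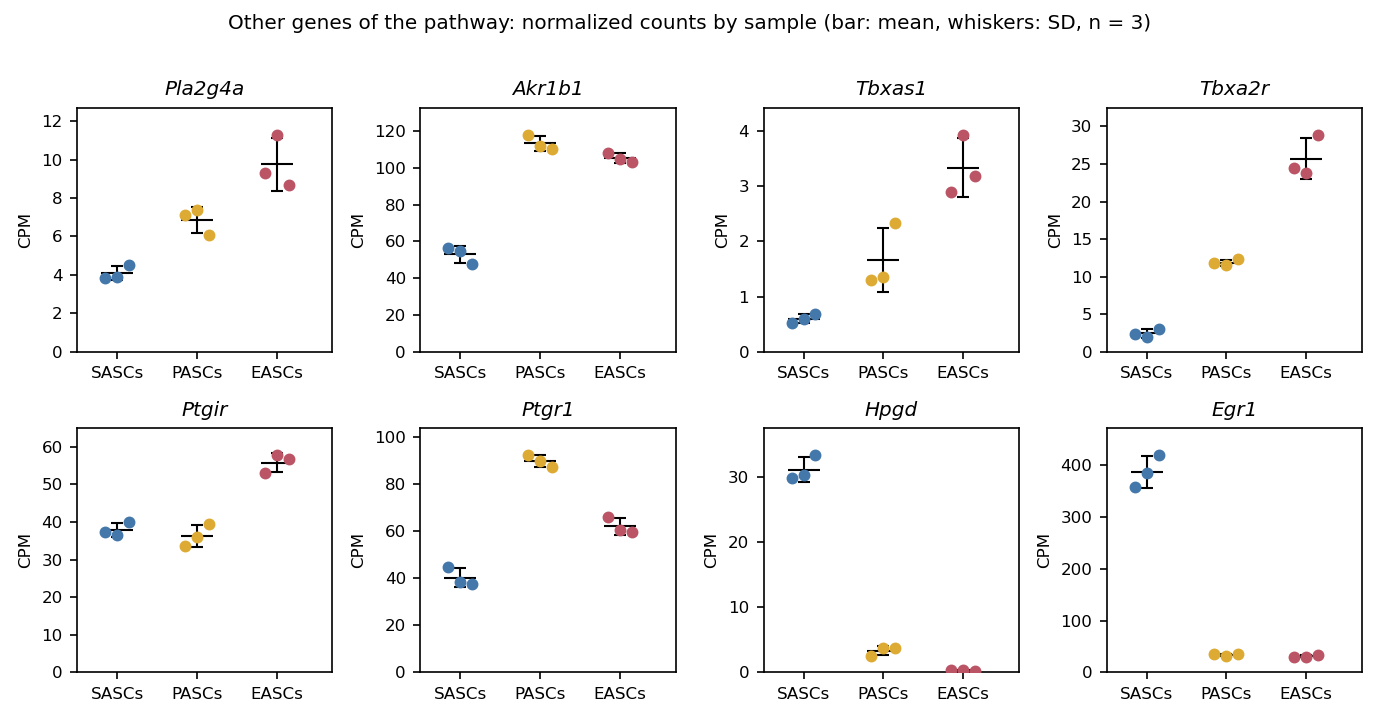
Normalized counts (CPM, linear axis from 0) of 8 further genes of the pathway in the 3 samples of each group, with the mean as a horizontal bar and the SD as whiskers. Tbxas1, Tbxa2r, and Pla2g4a climb from SASCs to EASCs, whereas Hpgd falls from 29.8 to 33.3 CPM in SASCs to 0.268 to 0.365 CPM in EASCs.

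Downstream of the receptors, 18 genes of the cAMP arm were tested. In EASCs against SASCs 7 rose and 5 fell, in PASCs against SASCs 10 rose and 6 fell, and in EASCs against PASCs 3 rose and 6 fell, beside 69.7%, 69.2%, and 30.7% of all genes that passed in either direction. Against SASCs, 2 of them were downregulated DEGs in EASCs and 3 in PASCs, beside 14.2% and 14.9% of all genes. Pde3a, a phosphodiesterase that breaks down cAMP, fell from 80.3 ± 3.41 CPM to 10.6 ± 0.858 in PASCs and 15.7 ± 1.54 in EASCs (7.62-fold, adjusted p = 1.48e-21, and 5.13-fold, adjusted p = 5.85e-20). Prkar2b, the RIIbeta regulatory subunit of protein kinase A that is typical of fat cells, fell 3.42-fold in PASCs and 2.23-fold in EASCs. The summed adipocyte markers were also lower in both groups, and their part was not tested. Adcy9, an adenylyl cyclase, fell 2.15-fold in PASCs (adjusted p = 2.98e-11) and by 0.66 on the log2 scale in EASCs (adjusted p = 3e-07). Of 9 genes of the Gq and Gi arm, 7 rose and 1 fell in EASCs, and 4 rose and 3 fell in PASCs against SASCs, to be read against the same 69.7% and 69.2%. Plcb1, a phospholipase C activated by Gq, fell from 11.4 ± 0.871 CPM to 1.60 ± 0.231 in PASCs (7.21-fold, adjusted p = 3.19e-14) and 2.50 ± 0.267 in EASCs (4.57-fold, adjusted p = 2.05e-12). Plcb2, also a phospholipase C, was at 1.55 ± 1.04, 0.712 ± 0.378, and 1.15 ± 0.525 CPM, and its lower level in PASCs (log2 fold change -1.04, adjusted p = 0.0457) was no longer called without SASCs replicate 3 (-0.394), without PASCs replicate 2 or 3 or EASCs replicate 1, or with the replicate block (-0.884, adjusted p = 0.0888). Plcb4, of the same family, was lower in PASCs (13.2 ± 0.229 CPM) and higher in EASCs (34.0 ± 2.07) than in SASCs (23.9 ± 2.43), with a log2 fold change of 1.37 between EASCs and PASCs (adjusted p = 1.01e-12). The summed endothelial markers had the same order of the groups as Pde3a, Prkar2b, Adcy9, and Plcb1, and their part was not tested.

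A list of 10 genes known to act on COX-2 or its mRNA held 3 downregulated DEGs in EASCs and 4 in PASCs against SASCs, beside 14.2% and 14.9% of all genes. At any FC 6 of the 10 fell and 2 rose in EASCs, and 6 fell and 3 rose in PASCs, beside 69.7% and 69.2% of all genes that passed in either direction, and none of those that rose was a DEG. Egr1, an immediate early transcription factor, fell from 387 ± 30.6 CPM to 33.8 ± 1.58 in PASCs and 31.4 ± 1.93 in EASCs. Zfp36, which speeds the decay of mRNAs with AU-rich elements such as that of COX-2, fell from 248 ± 6.0 CPM to 35.2 ± 0.304 and 39.7 ± 2.02. Nr3c1, the glucocorticoid receptor, fell from 207 ± 12.4 CPM to 82.9 ± 2.61 and 82.8 ± 4.01. Nfkbia, an inhibitor of NF-kappaB, fell 2.01-fold in PASCs (adjusted p = 9.36e-08), under an FC of 2 without SASCs replicate 1 (log2 fold change -0.96) or PASCs replicate 1 (-0.90), and by 0.89 on the log2 scale in EASCs (adjusted p = 5.96e-07). Between EASCs and PASCs, which differed in Ptgs2, 2 of the 10 genes passed the test, beside 30.7% of all genes. Of these Zfp36 rose by 0.17 on the log2 scale (adjusted p = 0.0329) and Nfkb1 fell by 0.21 (adjusted p = 0.00847).

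The lipoxygenase branch, which makes leukotrienes from the same arachidonic acid, was represented by 9 genes, of which 3 were tested. Lta4h, leukotriene A4 hydrolase, rose from 28.3 ± 2.03 CPM to 46.9 ± 1.33 in PASCs and 46.4 ± 1.72 in EASCs. Alox5, the 5-lipoxygenase, was at 2.60 ± 0.781, 1.91 ± 0.509, and 1.53 ± 0.251 CPM, and fell by 0.78 on the log2 scale in EASCs against SASCs (adjusted p = 0.0162). It shares 144 bases with a gene listed as 8-Mar on the other strand, which had 1663 to 2899 counts per sample. Alox5 had 28 to 91 counts, and its samples overlapped between EASCs and SASCs. Alox5ap, its activating protein and a gene of leukocytes, had 1 to 20 counts per sample and was upregulated against SASCs in PASCs (log2 fold change 1.51, adjusted p = 0.0442) and in EASCs (1.86, adjusted p = 0.0115). Its SASCs samples overlapped with those of each visceral group. The call in PASCs was lost without SASCs replicate 1 or 3, PASCs replicate 2 or 3, or EASCs replicate 1 or 2 (adjusted p = 0.0555 to 0.19) and without the filter on low counts (adjusted p = 0.0576). It was also lost with DESeq2 (adjusted p = 0.0526) and without TMM (adjusted p = 0.117). The call in EASCs was lost without SASCs replicate 1 or 3 or EASCs replicate 2 (adjusted p = 0.0593 to 0.075). With limma on log2(CPM + 1) both changes were under an FC of 2 (log2 fold change 0.362 in PASCs and 0.468 in EASCs). The summed level of the leukocyte markers had the same order, with 7 of the 8 higher in both visceral groups and Cd163 lower in PASCs (27.8 CPM in SASCs, 7.52 in PASCs, and 30.8 in EASCs), and their part in the difference of Alox5ap was not tested.

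For the 3 genes whose group means differed most on the log2(CPM + 1) scale, the genes with the most similar log2 CPM over the 9 samples were listed by Pearson's r. The nearest to Ptgis were Cnn1 (r = 0.9994), Pdlim5 (r = 0.999), and Acta2 (r = 0.9989), of which Cnn1 and Acta2 are in the smooth muscle list. The nearest to Ptgfr were Tbx15 (r = 0.9977), Mat2b (r = 0.9977), and Gcnt2 (r = 0.9972). Those nearest to Ptgs1 were Thy1 (r = 0.9912), Nab2 (r = 0.9874), and Palmd (r = 0.9866). Thy1 is in the mesenchymal list, and no other gene of that list had the order of the groups seen for Ptgs1. The samples fall into the 3 groups, so that r mostly compares 3 group levels, and 154 genes were above an r of 0.99 for Ptgis, 45 for Ptgfr, and 1 for Ptgs1. Genes whose symbols start with LOC, RGD, or AABR were left out of the ranking and of these counts.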

How the data were processed

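RNA of P3 SASCs, PASCs, and EASCs was sequenced with 150 bp paired-end reads. As described in the methods, the authors removed adaptors with cutadapt and low-quality sequence with FastX-Toolkit, aligned the reads with TopHat, allowing 2 mismatches and gaps of 2 bases, and deposited a table of raw counts per gene with gene lengths and positions. The methods name the build rn6 and the labels rn5, and the positions in the table are those of rn6. The counting tool and the use of strand, duplicates, and multiply mapped reads are not given in the sources used here, so overlapping genes may share counts. The authors' own calls came from DEGseq, which is not used here.

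The deposited counts were tested with edgeR 4.0.16 in R 4.3.3 (quasi-likelihood test, TMM factors 0.740 to 1.23, filterByExpr, which kept 14770 genes), in 1 model of 3 groups and 9 samples without a block. Benjamini-Hochberg adjustment ran over all genes of a comparison. A DEG needed both an FC above 2 and an adjusted p under 0.05, and "rose" or "fell" means the latter alone. The biological coefficient of variation common to all genes was 0.0685. Over the genes with enough counts, rRNA included, samples of 1 group differed beyond counting noise (chi-square per degree of freedom 5.93 to 267). The largest value was that of EASCs replicates 2 and 3, whose rRNA shares were 15.9% and 40.3%. Such values cannot show that the samples are independent, and each was counted as its own sample. Shares were compared by two-sided exact permutation tests, and each pathway list is described by its counts.

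The 10 genes and all lists were chosen with earlier results of these data known. Named besides the 10 genes were at most 5 genes of each list, DEGs with the largest change against SASCs first, and the 3 genes nearest to each of the 3 members with the widest range. Lphn2, Fibcd1, Hipk2, Parp12, Cactin, and 8-Mar were named because they overlap a named gene. Outside this rule, Ptges2 and Ptges3 of the synthesis list, and the single marker genes given beside the summed markers, were named after their values were seen. Sequences came from RefSeq (GRCr8), whose promoter table has 300 bases a gene, and the 50 after the start were left out.

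The alternatives were DESeq2 1.42.0, total counts in place of TMM, TMM after leaving out 7 rRNA genes, no filter, a filter at 1 CPM, fits of only the 2 groups at hand, a block for the replicate number, limma 3.58.1 on log2(CPM + 1), calls at any FC, shares of counts not divided by length, and leaving out each sample in turn. For the pathway lists, the rRNA, filter, 2-group, and limma alternatives were added after seeing the data.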

Additional observations from a re-analysis of the deposited data

Results flagged for a closer look

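Ptgs1 was the one gene of the 10 that passed the test in opposite directions in the 2 visceral depots, with a log2 fold change of 0.83 in PASCs and of -0.71 in EASCs against SASCs. The difference between these effects is the direct comparison of EASCs with PASCs, which gave -1.53 (edgeR's quasi-likelihood test, adjusted p = 2.23e-17), and all 3 EASCs samples were below all 3 PASCs samples. With each sample left out in turn this value was -1.59 to -1.48. Dixon's test for outlying samples was not run, as the groups hold 3 samples.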

How the results depend on the processing

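Over the 93 values recomputed, 1220 of the values under an alternative kept their direction and their side of the adjusted p threshold, or stayed within the margin for a count or share, and the rest are given here. For single genes this tally does not take in the FC of 2. Changes in the DEG calls of the 10 genes are given with each gene above. Scaling mattered, as total counts without TMM moved the median log2 fold change of all genes to -0.389 in EASCs and -0.332 in PASCs against SASCs and to -0.0768 in EASCs against PASCs, and the DEGs of all 14770 genes to 4774, 4427, and 1011. Without TMM Ptgs2 in PASCs against SASCs turned from 0.206 to -0.0989 (adjusted p = 0.816, not called in either). Ptger1 lost its calls, with 0.378 in EASCs and 0.0284 in PASCs against SASCs and 0.349 in EASCs against PASCs, Ptger4 gained one in EASCs against SASCs (-0.519), and lost that in EASCs against PASCs (0.228). In EASCs against SASCs, the DEGs then numbered 3 down among the 10 genes, 1 up and 1 down among the other synthesis genes, 2 down in transport and breakdown, 1 down in the lipoxygenase branch, and 5 down among the COX-2 regulators. In PASCs against SASCs they were 1 up among other synthesis genes, 0 up in transport and breakdown, and 0 up in the lipoxygenase branch, and in EASCs against PASCs 0 up among other synthesis genes.

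Ptger4 in EASCs against PASCs was 0.304 with DESeq2 and 0.307 without the filter, neither past the threshold, and 0.262 to 0.364 with 1 sample left out, where 5 of 9 fits missed it. Ptger2 in that comparison ranged from 1.17 to 2.03. DESeq2 gave 0 upregulated lipoxygenase genes in PASCs. With limma on log2(CPM + 1), the DEGs of all genes numbered 2648, 2542, and 506 in EASCs and PASCs against SASCs and in EASCs against PASCs, and 1 of the 10 genes was upregulated in EASCs against SASCs and 1 in EASCs against PASCs. In alternatives chosen after seeing the data, limma gave 0 upregulated lipoxygenase genes in each visceral group against SASCs, 1 upregulated gene of other synthesis in PASCs and 0 in EASCs against PASCs, and 1 downregulated gene of the Gq and Gi arm in PASCs. A filter at 1 CPM gave 0 upregulated lipoxygenase genes in each visceral group and 1 downregulated gene of the Gq and Gi arm in PASCs, the filter itself leaving out low genes. Upregulated lipoxygenase genes numbered 2 in EASCs against SASCs and 1 in EASCs against PASCs without a filter, and 0 in PASCs against SASCs and 1 in EASCs against PASCs in fits of 2 groups. Calls at any FC gave 3 downregulated genes of the 10 in EASCs and 3 upregulated in PASCs against SASCs, and 6 upregulated in EASCs against PASCs.

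With 1 sample left out, upregulated DEGs among other synthesis genes ranged from 2 to 4 in EASCs against SASCs and from 0 to 1 in EASCs against PASCs, and the downregulated from 0 to 1 in EASCs against SASCs. Upregulated lipoxygenase genes ranged from 0 to 2 in EASCs and from 0 to 1 in PASCs against SASCs, and from 0 to 1 in EASCs against PASCs. Downregulated genes of the Gq and Gi arm in PASCs ranged from 1 to 2. Of the 10 genes, 1 to 2 were downregulated in EASCs against PASCs, 1 without EASCs replicate 2.

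Samples with the same replicate number did not deviate together, with correlations of their deviations from the group means of -0.0301 to 0.0712, and they share only a number. With the replicate block, the DEGs of all genes numbered 4061, 3944, and 1067 in EASCs and PASCs against SASCs and in EASCs against PASCs, beside 4105, 3979, and 1091 without it. Among the values followed, the block moved 1, the downregulated genes of the Gq and Gi arm in PASCs, from 2 to 1.

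Shares of counts not divided by length gave 1.28%, 0.865%, and 5.36% for Ptgs2 in SASCs, PASCs, and EASCs, 12.8%, 85.4%, and 87.6% for Ptgis, 87.2%, 14.6%, and 12.4% for Ptges, 46.5%, 59%, and 59.7% for Ptger1, and 51.6%, 38.4%, and 36% for Ptger4. That of Ptger2 was 1.68% in PASCs and 3.77% in EASCs, and that of Ptger3 1.06% in SASCs. Where not named, the cause of a shift was not tested. Depth limits Ptgds, Ptger2, Ptger3, and Ptgs2, with at most 0, 30, 8, and 106 counts per sample, and the table's shorter gene models may also limit Ptger3 and Ptgs2.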
